A study of Mus musculus with 7 samples.

Results

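Il6ra, Il6st, Osmr, Lifr, Osm, Stat3, Socs1, Socs2, Socs3 and Cish are 10 genes of interleukin 6-type cytokine signalling, taken by symbol from the 29869 genes counted in whole soleus muscle. All 10 had a row, and 9 passed the filter on low counts. Osm did not, with 1 to 13 reads per library. Soleus, a calf muscle with many slow-twitch fibres, was taken from 7 mice aged 60 days that all carried mdx, the mutation that removes dystrophin and models Duchenne muscular dystrophy. By the sample titles 4 mice were mdx (animals 358, 361, 373 and 375, replicates 1 to 4) and 3 were mdx/Runx1f/f (animals 359, 363 and 374, replicates 1 to 3), with both copies of the transcription factor gene Runx1 floxed. No Cre driver and no floxed part of Runx1 is named in the labels. The series title asks which genes respond to Runx1 in mdx muscle.

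The direction of every difference below rests on the titles, which other labels contradict. The design text counts 3 mdx and 4 mdx/Runx1f/f muscles, and the description field ties most animal numbers to another sample. Runx1 itself stood 3.33-fold above mdx in the 3 libraries labelled mdx/Runx1f/f (log2 difference, that is log2 of the fold, 1.74, SE 0.18, edgeR adjusted p = 0.00795), the reverse of what a loss of Runx1 RNA would give. The libraries held 16218306 to 20847902 counts. Slow-fibre markers (Myh7, Tnnt1 and others of a list of 8) were abundant in each library, as the tissue label says, with a summed normalised read count of 529906 to 897943 in the mdx-labelled libraries and 141966 to 497302 in those labelled mdx/Runx1f/f. In the latter, replicate 1 stood apart as the lowest in slow-fibre and the highest in fast-fibre markers.

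Cytokines of this family bind a ligand-specific chain, such as the interleukin 6 receptor Il6ra, the oncostatin M receptor Osmr or the leukaemia inhibitory factor receptor Lifr, which signals through or together with the shared chain gp130, encoded by Il6st. The receptor complex activates Jak kinases, which phosphorylate the transcription factor Stat3. Stat3 then induces Socs3, whose protein binds gp130 and the Jak kinases and shuts the signal off. Socs1, Socs2 and Cish are relatives of Socs3, and Socs2 and Cish are classic targets of Stat5 downstream of growth hormone and other cytokines. In muscle, the pathway is known from injury, where macrophages and damaged fibres release its ligands and satellite cells, the muscle stem cells, respond to them.

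The promoter of Socs3 is shown because Socs3 was the member that passed the test, and that of Cish because it varied most between mice. Both are RefSeq sequences of GRCm38.p6, the 250 bases before the annotated start, 5′ to 3′ on the gene's strand. Capitals mark TTCNNNGAA, the palindrome that Stat proteins bind.
Socs3 (chr11:117969367-117969616, minus strand): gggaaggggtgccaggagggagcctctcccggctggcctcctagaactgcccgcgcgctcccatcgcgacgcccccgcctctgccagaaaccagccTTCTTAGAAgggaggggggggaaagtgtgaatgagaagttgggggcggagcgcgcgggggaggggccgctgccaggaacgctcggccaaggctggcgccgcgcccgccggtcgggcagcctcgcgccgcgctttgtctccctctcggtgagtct
Cish (chr9:107296409-107296658, plus strand): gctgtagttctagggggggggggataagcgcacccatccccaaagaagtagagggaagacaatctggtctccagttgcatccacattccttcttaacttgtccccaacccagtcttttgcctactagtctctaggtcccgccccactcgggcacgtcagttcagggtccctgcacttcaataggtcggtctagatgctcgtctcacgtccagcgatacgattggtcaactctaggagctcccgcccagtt
The site TTCTTAGAA in Socs3 lies at -154 to -146 from the RefSeq start. The nearest start of a protein-coding transcript in GENCODE M21 lies 180 bases downstream of that RefSeq start. The table held 9 such windows for 8 of the 10 members, each set by the RefSeq start. The nearest GENCODE transcript start lay 656 bases upstream of that start for Osmr and 51 bases downstream for Cish. For Socs3 it lay 180 bases downstream, as above, and for the remaining windows the starts coincided. Bases before a differing GENCODE start were not searched separately. TTCNNNGAA was in 1 of the 9, against 7.02% of 32851 promoters in the table. The same palindrome with 1 more base in its middle was in 0 of the 9, against 5.85% of all promoters. TGTGGT or its reverse complement ACCACA, the letters that Runx proteins bind, was also in 0 of the 9, against 14.05% of all promoters. These are matches of letters in one window per start and not measured sites. The search covered both strands, and the motifs could overlap.

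Of the 9 tested members 1 rose and 0 fell in the libraries labelled mdx/Runx1f/f when 14033 genes were tested (edgeR, quasi-likelihood, Benjamini-Hochberg adjusted p below 0.05). Across all tested genes 6.95% were called, 5.10% higher and 1.85% lower. The member that rose was Socs3. In 4 of the 9, Il6st, Osmr, Socs1 and Socs3, the libraries labelled mdx/Runx1f/f all lay above those labelled mdx, while the groups were parted in that direction in 13.9% of all tested genes, in the other direction in 13.6% and in either in 27.4%. The median log2 difference of the 9 was 0.41, with 7 above 0, and that of all tested genes was -0.0016, with 49.8% above 0. An unadjusted p below 0.05 was given to 4 of the 9 and to 29.5% of all tested genes. DESeq2 called 3 of the members higher and 0 lower, where it called 17.8% of genes, 11.1% higher and 6.72% lower. Limma-voom called 0 of the members, 4 of which had an unadjusted p below 0.05 by edgeR, where it called 7.30% of genes, 5.24% higher and 2.05% lower. The authors' deposited table has 3 members called, all higher, beside 19.0% of its genes in either direction and 11.2% higher.

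**Figure D1:**
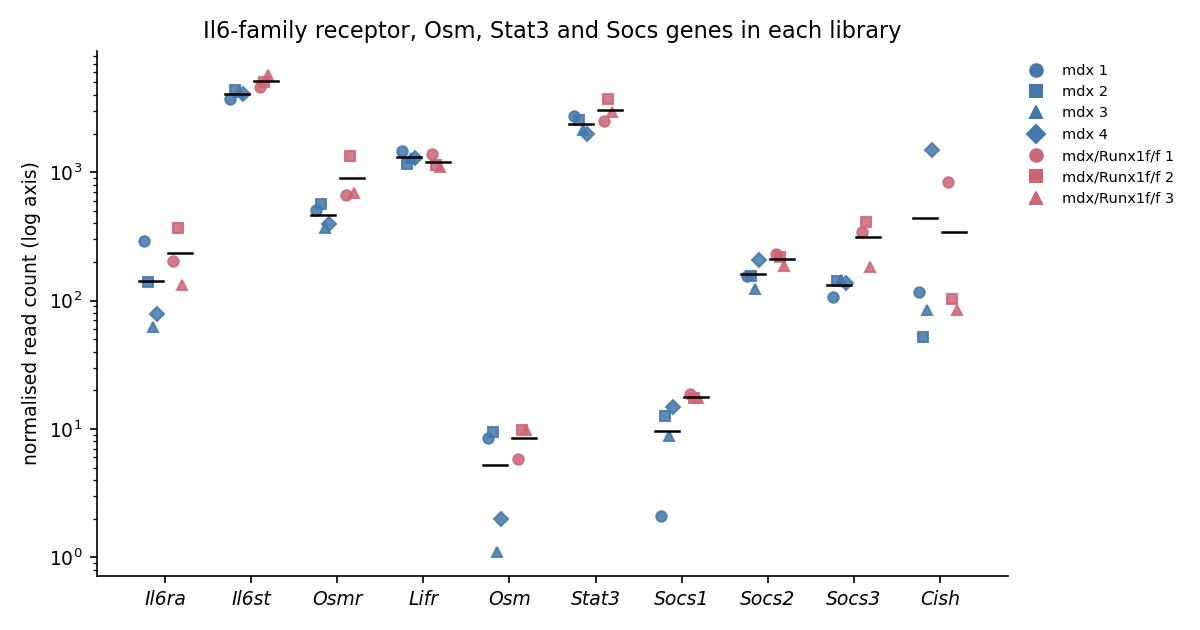
Normalised read count (log axis) of the 10 genes in each of the 7 libraries, blue for those labelled mdx and red for those labelled mdx/Runx1f/f, with the replicate by symbol and the group mean as a black line. Socs3, Osmr, Il6st and Socs1 are parted between the groups, and Cish has 1 library in each group far above the rest.

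Among the receptors, Osmr had the largest difference. Osmr, which pairs with gp130 to bind oncostatin M, had normalised read counts of 507, 568, 367 and 398 in the mdx-labelled libraries and 660.1, 1327 and 691 in those labelled mdx/Runx1f/f. All 3 of the latter lay above all 4 of the former, and replicate 2 stood far above the other two. The means were 459.9 ± 94.0 (SD, n = 4) and 893 ± 377 (SD, n = 3), a 1.95-fold difference that did not pass the test (log2 difference 0.96, SE 0.27, edgeR adjusted p = 0.0653). DESeq2 called it (log2 difference 0.96, adjusted p = 0.0112). In the authors' deposited table it was called too, at a log2 difference of 0.83 and an adjusted p of 0.0150. Without mdx/Runx1f/f replicate 2 the log2 difference was 0.57, and 10.3% of all tested genes had a fold change at least as large as that of Osmr with all libraries.

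Il6st, the gene of the shared chain gp130, was among the steadiest members. Its normalised read counts were 3683, 4340.2, 4190.0 and 4050.5 in the mdx-labelled libraries and 4590.1, 5005 and 5751 in the others. The groups did not overlap, yet the lowest library labelled mdx/Runx1f/f was close to the highest labelled mdx. The log2 difference was 0.34 (SE 0.11, edgeR adjusted p = 0.0936), and DESeq2 called it (adjusted p = 0.0325), as did the authors' deposited table (log2 difference 0.32, adjusted p = 0.0259). A change of at least that size was found in 39.1% of tested genes.

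Lifr, the receptor for leukaemia inhibitory factor, stood at 1453, 1162, 1294 and 1294 normalised counts in the mdx-labelled libraries and at 1379.9, 1145 and 1093 in the others. The groups overlapped, and the log2 difference was -0.10 (SE 0.12, edgeR adjusted p = 0.605). Lifr and Il6st varied 1.25-fold and 1.18-fold from lowest to highest in the 4 libraries labelled mdx, where the median gene with a mean of at least 100 normalised counts varied 1.27-fold.

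Il6ra, which makes a cell responsive to interleukin 6, varied far more between mice. Its normalised counts were 291, 139.9, 61.8 and 79.0 in the mdx-labelled libraries and 202, 365 and 131 in the others. The highest library labelled mdx, replicate 1, lay above 2 of the 3 labelled mdx/Runx1f/f. The 4.70-fold range in the libraries labelled mdx was reached by 87 of 9781 genes, Il6ra included, and the log2 difference of 0.71 (SE 0.55, edgeR adjusted p = 0.412) moved between 0.23 and 1.32 as single libraries were left out, the former without mdx/Runx1f/f replicate 2 and the latter without mdx replicate 1. By GENCODE M21 an antisense gene, Gm42809, overlaps an exon of Il6ra.

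Of the ligands, Osm, which encodes oncostatin M and is made mainly by myeloid cells, was near the limit of detection. Its normalised counts were 8.45, 9.40, 1.10 and 1.97 in the mdx-labelled libraries and 5.88, 9.86 and 9.76 in the others. The groups overlapped, and the gene was not tested at this depth.

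Stat3, the transcription factor at the centre of the pathway, was abundant in all 7 mice, at 2752, 2530.4, 2138 and 1992 normalised counts in the mdx-labelled libraries and 2503, 3717 and 2916 in the others. The groups overlapped, since mdx/Runx1f/f replicate 1 lay below mdx replicates 1 and 2. The log2 difference was 0.38 (SE 0.16, edgeR adjusted p = 0.167). It was 0.21 without mdx/Runx1f/f replicate 2, its highest library. By GENCODE M21 an exon of Stat3 shares up to 72 bases with Stat5a on the other strand, where reads cannot be told apart without strand.

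Socs3, the feedback inhibitor that Stat3 induces, was the member that rose. Its normalised read counts were 106, 143, 146 and 138 in the mdx-labelled libraries and 344, 411 and 181 in those labelled mdx/Runx1f/f. All 3 of the latter lay above all 4 of the former, with replicate 3 nearest to them. The means were 133 ± 18.6 (SD, n = 4) and 312 ± 118 (SD, n = 3), a 2.36-fold rise (log2 difference 1.24, SE 0.26, edgeR adjusted p = 0.0348). A fold change of at least that size was found in 5.65% of tested genes. DESeq2 gave an adjusted p of 0.000729 and limma-voom 0.0514, and the authors' deposited table has a log2 difference of 1.07 with an adjusted p of 0.000916. The call was kept in 1 of the 7 fits lacking 1 library, that without mdx/Runx1f/f replicate 3 (log2 difference 1.499, edgeR adjusted p = 0.0253), and in the other 6 the adjusted p lay between 0.0586 and 0.112 with log2 differences of 0.99 to 1.29. Within animals 358 to 363 (2 against 2) the log2 difference was 1.62, and within animals 373 to 375 (2 against 1) it was 0.36, with edgeR adjusted p of 0.131 and 0.349.

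Socs1, an inhibitor that blocks Jak kinases directly and is known for its role in interferon signalling, was low in all libraries. It stood at 2.11, 12.5, 8.83 and 14.8 normalised counts in the mdx-labelled libraries and at 18.6, 17.4 and 17.4 in the others. The groups were parted, on 2 to 23 reads per library, and the log2 difference of 0.89 (SE 0.47, edgeR adjusted p = 0.249) did not pass the test.

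Socs2, which restrains growth hormone signalling, stood at 154, 156, 123 and 207 normalised counts in the mdx-labelled libraries and at 232, 218 and 184 in the others. The groups overlapped through mdx replicate 4, the highest of its group (log2 difference 0.41, SE 0.19, edgeR adjusted p = 0.185).

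Cish, the founding member of the Socs family, varied more between mice than the other members. Its normalised read counts were 117, 52.2, 83.9 and 1495 in the mdx-labelled libraries and 836, 103 and 84.6 in those labelled mdx/Runx1f/f. One library in each group, mdx replicate 4 and mdx/Runx1f/f replicate 1, was far above the rest, and the other 5 lay between 52.2 and 117. The same 2 libraries were the highest of their group for Socs2. The highest library was 28.6-fold above the lowest in the libraries labelled mdx, a range that 7 of 9781 genes reached, Cish included, and 9.89-fold in the others, which 27 of 10142 genes reached. The group means of 437 ± 706 (SD, n = 4) and 341 ± 429 (SD, n = 3) thus describe no library, and the log2 difference of -0.35 (SE 1.29, edgeR adjusted p = 0.882) was -2.22 without mdx/Runx1f/f replicate 1 and 2.02 without mdx replicate 4. By GENCODE M21 an antisense gene, Gm17041, and a pseudogene, Gm17040, overlap exons of Cish on the other strand.

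**Figure D2:**
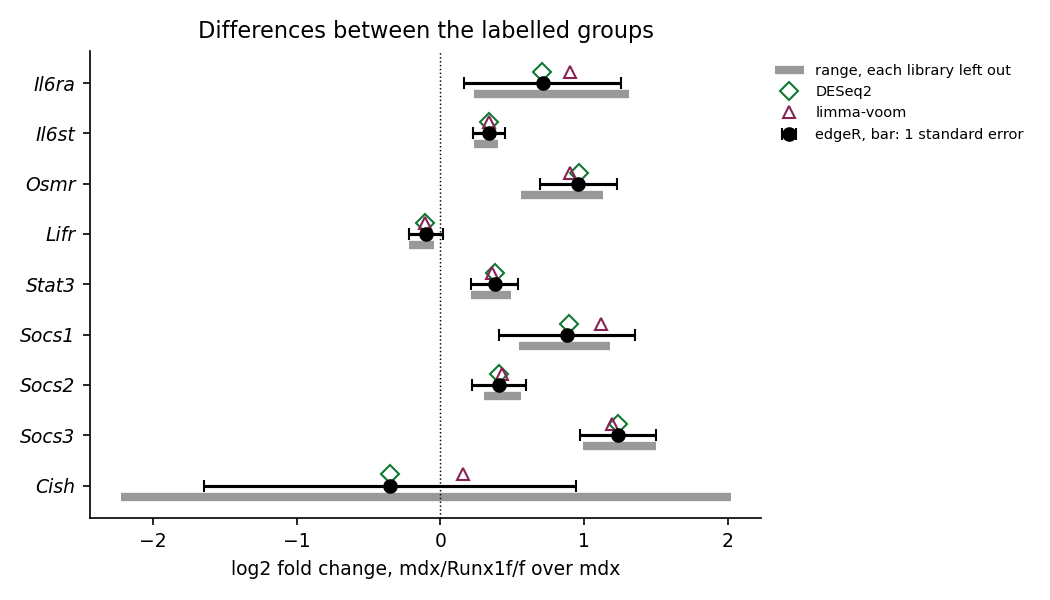
Log2 fold change of the 9 tested genes, libraries labelled mdx/Runx1f/f over mdx: black points by edgeR with 1 standard error, open symbols by DESeq2 and limma-voom, and grey bars for the range over the 7 fits lacking 1 library. The bar of Socs3 runs from 0.99 to 1.499 and that of Cish from -2.22 to 2.02.

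Levels were compared between genes as normalised counts per kilobase of the longest protein-coding transcript in GENCODE M21, a scale that depends on the isoform used. In the libraries labelled mdx the receptor chain Il6st was the highest at 468 ± 32.4 per kilobase (SD, n = 4), followed by Stat3 at 389.5 ± 57.9, and the ranges of both over the 4 mice overlapped. The mean of Cish came next at 153 ± 248, a rank that rested on mdx replicate 4 at 524 per kilobase. In the other 3 libraries Cish was at 18.3 to 41.1 per kilobase, below every library of Lifr, Osmr, Socs2 and Socs3 on this scale. The margin to Socs3 was small, at 41.4 per kilobase in mdx replicate 1. Lifr at 135 ± 12.3 lay clear above Osmr at 83.8 ± 17.1, which overlapped Socs2 at 72.0 ± 15.8, and Socs2 overlapped Socs3 at 52.2 ± 7.29. Socs3 was clear above Il6ra at 16.5 ± 12.04, and Il6ra was clear above Socs1 at 3.29 ± 1.91, which overlapped Osm at 2.30 ± 1.89. With the joined length of all annotated exons instead, the mean of Lifr ranked above Cish, and that of Socs3 above Osmr and Socs2. In the libraries labelled mdx/Runx1f/f Osmr reached 163 ± 68.6 and Socs3 122 ± 46.3 per kilobase (SD, n = 3), and the ranges of Osmr and Lifr, and of Lifr and Socs3, overlapped there.

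Most of the other ligands of the family were scarce. Of 11 in the table, 6 (Il6, Il11, Cntf, Ctf2, Il27 and Il31) had at most 10 reads in every library and were not tested. Of the 5 tested, 0 were called in either direction by edgeR, 2 had an unadjusted p below 0.05, beside 29.5% of all tested genes, and the median log2 difference was 0.27. Ctf1, which encodes cardiotrophin 1, stood at 189, 137, 216 and 164 normalised counts in the mdx-labelled libraries and at 129, 105 and 92.2 in the others. The groups did not overlap, and the log2 difference of -0.69 (edgeR adjusted p = 0.0699) did not pass the test, whereas DESeq2 called it (adjusted p = 0.0195). Ebi3, a subunit of heterodimeric cytokines, had 1.48 (edgeR adjusted p = 0.0999) on 3 to 59 reads. Lif, on 1 to 16 reads, had a log2 difference of 0.83. Clcf1, at 89.8 to 151 normalised counts over all libraries, had 0.04.

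Of the other receptors, 3 were tested and 0 called by edgeR, and 0 had an unadjusted p below 0.05. Il11ra1, the interleukin 11 receptor, was at 645 to 734 normalised counts in the mdx-labelled libraries and at 611 to 763 in the others, with a log2 difference of 0.00 to 2 decimals. Il27ra had 0.70. Cntfr, the ciliary neurotrophic factor receptor, had 0.86, a value that rested on single libraries: it was 1.74 without mdx replicate 1 and 0.21 without mdx/Runx1f/f replicate 1.

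Among the Jak kinases and the other Stat genes, 1 of 9 tested fell and 0 rose by edgeR (median log2 difference 0.26). Across all tested genes 1.85% fell and 5.10% rose. An edgeR unadjusted p below 0.05 was given to 4 of the 9, beside 29.5% of all tested genes. Stat5a, which carries growth hormone and prolactin signals, had normalised counts of 623, 541, 729 and 623 in the mdx-labelled libraries and 449.5, 388 and 388 in the others. All 3 of the latter lay below all 4 of the former, a log2 difference of -0.61 (SE 0.12, edgeR adjusted p = 0.0313), and the call was kept in 2 of the 7 fits lacking 1 library. Its near-identical neighbour Stat5b, which can share reads with it, had -0.62 and was not called (edgeR adjusted p = 0.126). Jak1, the main kinase on gp130, was at 2908 to 3062 in the mdx-labelled libraries and at 3370.5 to 4048 in the others (log2 difference 0.30, edgeR adjusted p = 0.0891), and DESeq2 called it higher (adjusted p = 0.0171). Jak2 had -0.12.

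Of 13 other brakes on the pathway (Socs4 to Socs7, Pias genes, phosphatases and Sh2b3), 0 were called by edgeR and 3 had an unadjusted p below 0.05, beside 29.5% of all tested genes, with a median log2 difference of 0.05. DESeq2 called the phosphatase genes Ptpn6 and Ptpn1 higher (log2 differences 1.57 and 0.56, adjusted p = 0.0233 and 0.0361) and Socs5 lower (-0.49, adjusted p = 0.0478). Of all the genes it tested, DESeq2 called 11.1% higher and 6.72% lower. For Ptpn6 the groups overlapped, at 35.3 to 167 normalised counts in the mdx-labelled libraries and 155 to 361 in the others. Of 22 tested genes known as Stat3 targets, 2 rose and 0 fell by edgeR, beside 5.10% and 1.85% of all tested genes. The median log2 difference of the list was 0.49. An edgeR unadjusted p below 0.05 was given to 9 of the 22, beside 29.5% of all tested genes. DESeq2 called 9 of that list higher and 0 lower, beside 11.1% and 6.72% of the genes it tested. The 2 genes called by edgeR were Lbp, an acute-phase protein that binds lipopolysaccharide (log2 difference 1.80, SE 0.17, edgeR adjusted p = 0.00795), and Icam1, a leukocyte adhesion molecule (0.98, SE 0.20, edgeR adjusted p = 0.0331). Lbp was at 183 to 317 normalised counts in the mdx-labelled libraries and at 801 to 866 in the others, and its call was kept in all 7 fits lacking 1 library, that of Icam1 in 2.

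In the growth hormone and Stat5 list 3 of 10 genes rose and 0 fell by edgeR, with a median of 0.53. DESeq2 called 4 higher and 0 lower. Over all genes tested the shares were 5.10% and 1.85% by edgeR, and 11.1% and 6.72% by DESeq2. An edgeR unadjusted p below 0.05 was given to 4 of the 10, beside 29.5% of all tested genes. Igf1, the growth factor that growth hormone induces, had a log2 difference of 1.00 (edgeR adjusted p = 0.0227), and its call was kept in 5 of the 7 fits lacking 1 library. Csf2rb and Csf2rb2, the shared and the interleukin 3-specific beta chains of myeloid cytokine receptors, had 1.597 and 1.74 (edgeR adjusted p = 0.0342 and 0.0168). The 2 genes are close copies, so their reads can be split between them, and the calls were kept in 3 and 6 of the 7 fits.

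**Figure D3:**
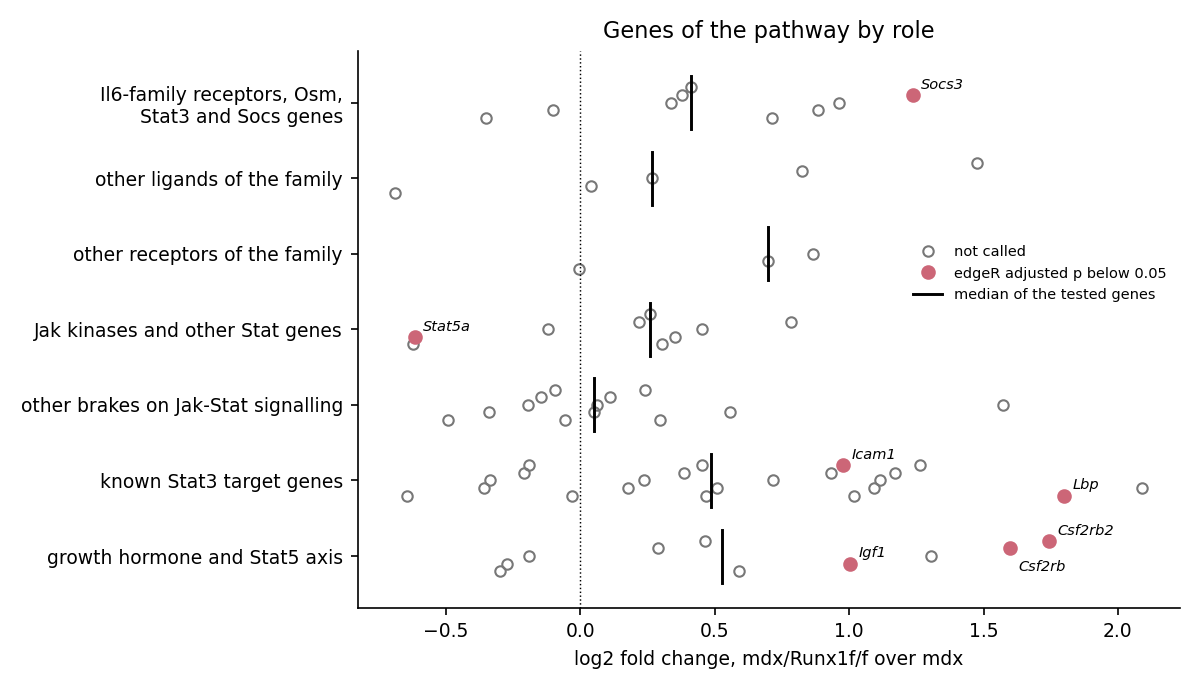
Log2 fold change (libraries labelled mdx/Runx1f/f over mdx) of each tested gene by role in the pathway, with called genes in red and named and the median of each list as a black line. The median lies between 0.05 for the other brakes and 0.70 for the other receptors, and Stat5a is the called gene below 0.

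Genes with the most similar pattern over the 7 libraries were found from the root mean square difference in log2 CPM (counts relative to library size) after each gene's mean was taken off, among 9972 genes with a mean of at least 100 normalised counts. Nearest to Osmr were Akna, Tmem164 and Entpd1, which encodes the ecto-nucleotidase CD39, at differences of 0.062, 0.112 and 0.115. Among the 3 nearest to Stat3 were Nfkbiz, an inducible regulator of NF-kappa B, and Pdia6, at 0.049 and 0.059. By this measure, which also depends on how widely a gene varies, Cish had no close counterpart. The nearest, 6430571L13Rik, Kcne1l and AF217545, were at 1.02, 1.30 and 1.31. Like Cish, each was highest in mdx replicate 4 among the mdx-labelled libraries and in mdx/Runx1f/f replicate 1 among the others.

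**Figure D4:**
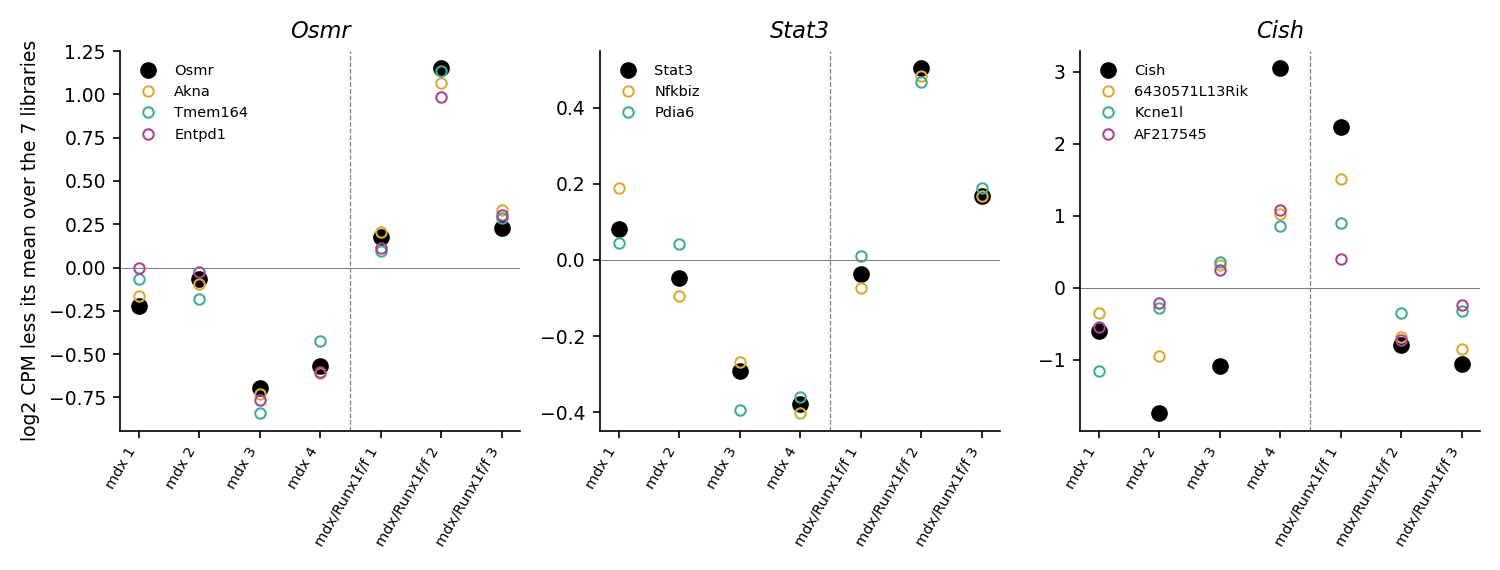
Log2 CPM less its mean over the 7 libraries for Osmr, Stat3 and Cish (filled black) and the genes named as nearest to each (open), by library, with the labelled groups divided by a dashed line. The points of Osmr and Stat3 nearly coincide with those of their neighbours, while in mdx replicate 4 Cish lies at 3.05 and its neighbours at 0.86 to 1.08.

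Some of the cell type marker lists also differed between the labelled groups. Of the genes each tested, edgeR called 5.10% higher and DESeq2 11.1%, and 29.5% had an edgeR unadjusted p below 0.05. Of 13 tested macrophage markers edgeR called 4 higher and DESeq2 7, and 11 had an edgeR unadjusted p below 0.05. The sum of the list was 3525 to 14851 normalised counts in the mdx-labelled libraries and 14722 to 39611 in the others. The library with the highest macrophage sum in each group, mdx replicate 1 and mdx/Runx1f/f replicate 2, was also the highest in its group for Il6ra and Stat3, and mdx/Runx1f/f replicate 2 for Osmr and Socs3. In mdx replicate 1, however, Socs3 was the lowest of all 7 libraries at 106 normalised counts, and among the mdx-labelled libraries Osmr was highest in replicate 2 at 568. Of 10 fibro-adipogenic progenitor markers, from the stroma between fibres, 8 were called higher by edgeR and 10 by DESeq2. Their sum was 36643 to 56597 against 109008 to 131364. Of 7 adipocyte markers 4 were called higher by edgeR and 5 by DESeq2 (sum 5734 to 7819 against 7468 to 13972). Most of that sum was Fabp4, at 4773 to 7260 and 5638 to 7586, with a log2 difference of 0.16. The other adipocyte markers had log2 differences of 2.06 to 2.48. Of 10 endothelial markers 1 was called higher by edgeR and 1 by DESeq2. Of 8 satellite cell markers 0 were called higher by edgeR, with 3 at an unadjusted p below 0.05, and 2 were by DESeq2. All 8 slow-fibre markers had a log2 difference below 0, and 5 had an edgeR unadjusted p below 0.05. EdgeR called 0 of the slow-fibre markers lower and DESeq2 3, beside 1.85% and 6.72% of the genes each tested. Neutrophil markers summed to 29.6 to 227 and 72.7 to 268 normalised counts, T cell markers to 20.1 to 39.7 and 75.1 to 116, and 4 of 9 and 6 of 9 of their markers had at most 10 reads in every library. Most of the T cell sum in the libraries labelled mdx/Runx1f/f was Cd4, at 54.8, 37.9 and 59.6. The part of any cell type in the differences of Socs3, Osmr or Il6st was not tested, and in whole muscle more cells of a type and more RNA per cell cannot be told apart.

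**Figure D5:**
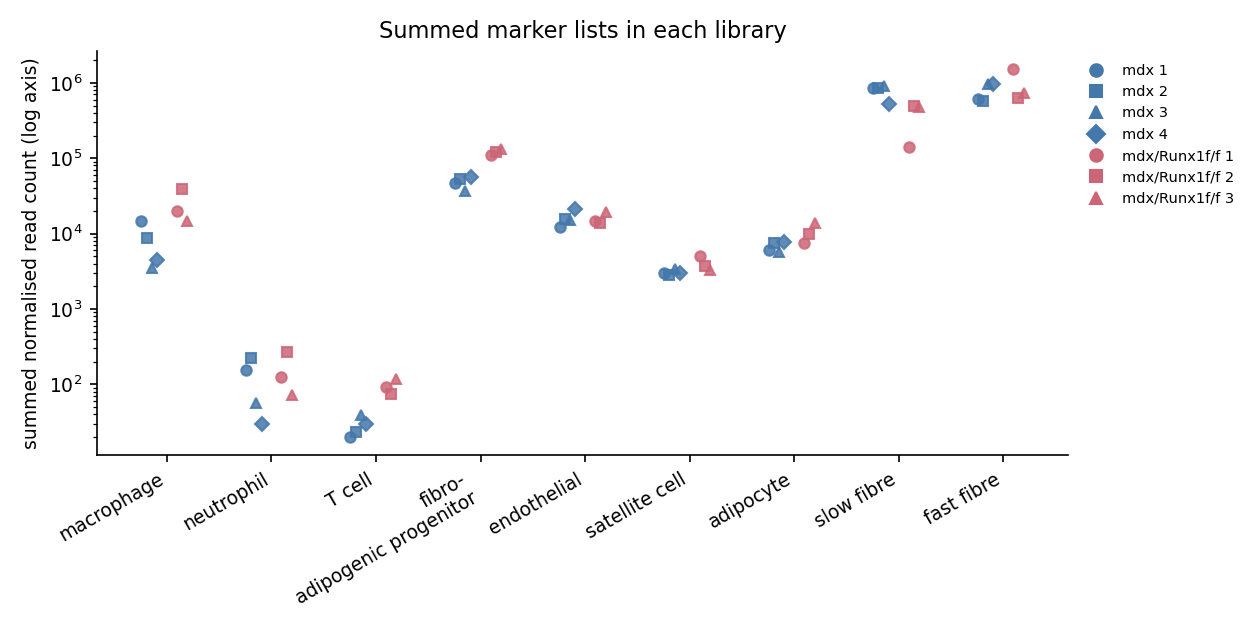
Summed normalised read count (log axis) of each marker list in each of the 7 libraries, blue for those labelled mdx and red for those labelled mdx/Runx1f/f. The sums of fibro-adipogenic progenitor and T cell markers are higher, and that of slow-fibre markers lower, in all 3 libraries labelled mdx/Runx1f/f.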

How the data were processed

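RNA was sequenced from whole soleus of 7 mice after TruSeq library preparation, per the labels. The authors deposited 1 table with raw read counts per gene, made with TopHat2 2.0.10 and HTSeq on mm9, per the submitters' processing notes. Another block of columns holds the counts times 1 constant per library, a signal on the count scale that the authors normalised and that is printed here as normalised read count. Log2 fold changes with standard errors and adjusted p-values of the authors' comparison were deposited too, with DESeq2 column names per the file headers, and DESeq2 1.6.3 is named in the submitters' processing notes. For annotation, strand setting and multi-mapping reads the steps were not given in the sources used here.

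Columns, headed by animal number, were joined to samples through the titles. The fit of the counts used edgeR 4.0.16 (R 4.3.3) with TMM, filterByExpr, its quasi-likelihood test and group as the only term. Genes were called at a Benjamini-Hochberg adjusted p below 0.05 over 14033 genes. The standard error is the log2 fold change over the root of F. DESeq2 1.42.0, limma-voom (limma 3.58.1), other scalings and filters, covariates and left-out libraries were alternatives. The fitting functions were tested on simulated data. The titles name 7 different animals, and no 2 libraries agreed within sampling noise (lowest chi-square of a pair in a group 15.9 per degree of freedom). The named genes were the 10 members, Runx1, tested ligands and receptors, Jak1, Jak2, Stat5a, Stat5b, up to 6 called genes per pathway list with the smallest p, and the 3 nearest genes by pattern. A few genes that this rule names are not reported here. The lists are from general knowledge. Il11ra2, Ly6g and Trbc2 had no row, and Lnk and Adgre1 were found as Sh2b3 and Emr1. Members and lists were chosen with earlier results of these data known. Promoters are from a RefSeq table of GRCm38.p6, whose build differs from that of the counts.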

Additional observations from a re-analysis of the deposited data

Results flagged for a closer look

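Cish in the libraries labelled mdx stood out because 1 mouse lay far from the rest: its gap to the nearest other library was 0.955 of the whole range of the group, above Dixon's 95% critical value for 4 samples. That library was mdx replicate 4, at 1495 normalised counts against 52.2 to 117 in the other 3. A gap above Dixon's 95% critical value, of whatever size, arises by chance in about 1 in 20 groups, and 11 genes were checked.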

How the results depend on the processing

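The counts of calls moved with the setting. Over all genes 1491 were called higher and 905 lower with DESeq2, 1246 and 582 with the animal number range (358 to 363, 373 to 375) as a covariate, 0 and 0 within animals 358 to 363, 1361 and 440 within animals 373 to 375, and 173 to 641 and 17 to 209 with each library left out. Of the members, 3 were called higher with DESeq2 (Socs3, Osmr and Il6st), 2 with the covariate (Socs3 and Osmr), 2 within animals 373 to 375 (Osmr and Stat3, with the lone library labelled mdx/Runx1f/f taken to vary like the others), 0 with limma-voom, 0 within animals 358 to 363 and 0 to 1 with each library left out, and 0 were called lower in any of the 17 alternatives. With the title number as a block, 240 genes were called higher and 80 lower, and 0 members higher, with Socs3 at an adjusted p of 0.0861 by edgeR. Same-numbered libraries did not deviate together in all 3 pairs (correlations of -0.00687, 0.241 and 0.275), and mdx replicate 1 correlated best with mdx/Runx1f/f replicate 2, so the numbers were not read as pairing. The log2 fold change of Cish was 0.16 with limma-voom, 1.39 with the block, 0.82 with the covariate, 2.48 within animals 358 to 363, -3.23 within animals 373 to 375 and -2.22 to 2.02 with each library left out. Small values also changed sign: Clcf1 was -0.036 with the block, -0.31 within animals 373 to 375 and -0.11 to 0.17 with each library left out. Il11ra1 was 0.0029 with a filter of 1 CPM in 3 libraries, 0.018 with the covariate, 0.095 within animals 373 to 375 and -0.090 to 0.081 with each library left out. Jak2 was -0.23 to 0.028 with each library left out. No other gene given a log2 difference by name and refitted here changed sign in an alternative. The causes were not tested. Socs1 was not fitted under the filter of 1 CPM in 3 libraries. Osm and Socs1 rest on few reads, which limits their precision.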
